A study of Homo sapiens with 6 samples.

Results

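The enzymes described here make asparagine, proline, arginine and cysteine, or supply the aspartate and alanine that these routes exchange: ASNS, ASS1, ASL, PYCR1, ALDH18A1, GPT2, GOT1, CTH and CBS. They were chosen by gene symbol, with earlier results of these data known. All 9 were found among the 59248 symbols measured and passed the expression filter that left 21055 genes for testing. The data are bulk RNA sequencing of 6 libraries of Jurkat, an established human T-cell leukaemia line. Of these, 3 libraries came from cells overexpressing a splicing isoform of PDCD1, the PD-1 receptor gene, that keeps 28 bases of intron 2, and 3 from cells with the vector. The labels call the line Jurkat KO-1 without saying what was changed in it, and give all cultures RPMI medium with fetal bovine serum. They do not say whether the libraries came from separate cultures or whether either group is a clone, so p-values cover variation between libraries that could be purely technical.

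Human cells can make these amino acids but also import them, and lymphoid leukaemia cells with little asparagine synthetase depend on asparagine from outside, which is the basis of asparaginase treatment. When amino acids run short, the kinase GCN2 phosphorylates the initiation factor eIF2, translation of the transcription factor ATF4 increases, and ATF4 raises transcription of amino acid synthesis and transport genes. ATF4 binds a composite site, the C/EBP-ATF response element, of which the element in the ASNS promoter is the best studied.

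The targeted gene, PDCD1, had 807 to 1059 estimated counts in overexpression and 14 to 18 in vector, without separating the isoform from other transcripts. The libraries held 59911578 to 84220970 estimated counts, and vector replicate 2 stood apart from the other vector libraries on the second principal component, with 9.71% of the variance. T cell markers, of which 3 of 16 were called higher and 10 lower, summed to 3670 to 3731 CPM in overexpression and 4068 to 4323 CPM in vector. CD3E, a T-cell receptor subunit gene, stood at 392.3 to 399.7 CPM in overexpression and 408 to 427 CPM in vector, and 3 other T cell genes differed far more. CD28, a costimulatory receptor gene, stood at 1.52 to 2.28 CPM in overexpression and 163 to 248 CPM in vector, and CD2 and CD7 at 3.98 to 4.58 and 16.4 to 18.4 CPM in overexpression against 23.6 to 26.7 and 68.8 to 84.03 CPM in vector. B cell markers (1 of 5 tested higher, 2 lower) summed to 33.4 to 40.4 CPM in overexpression and 52.2 to 69.8 CPM in vector. Most of this sum was CD79A, at 27.3 to 35.4 and 40.7 to 59.2 CPM, while BLK was at 0 in each overexpression library and 5.96 to 8.23 CPM in vector. Myeloid markers (2 of 4 tested lower) summed to 36.1 to 39.7 CPM in overexpression and 50.4 to 56.9 CPM in vector. Nearly all of that sum was AIF1, at 34.96 to 38.4 and 48.4 to 55.3 CPM. Natural killer cell markers (1 of 2 higher) summed to 4.21 to 4.59 CPM in overexpression and 3.05 to 6.27 CPM in vector, and epithelial and kidney line markers (1 of 1 higher) to 0.785 to 1.596 and 0.370 to 0.607 CPM. EPCAM and NCR1 were at 0 in all 6 libraries. The part of these marker differences in the enzyme results was not tested. CPM here are estimated counts scaled to library size with TMM factors, which leaves differences in gene length in place.

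Transcripts of 8 of the 9 enzymes were called higher in overexpression, 0 were called lower by edgeR (0 also at an unadjusted p under 0.05 and by DESeq2), and ALDH18A1 was not called. In all tested genes, 46.1% were called, 22.6% higher and 23.4% lower in overexpression, at an adjusted p under 0.05 (edgeR quasi-likelihood test, Benjamini-Hochberg over all genes tested), with a median log2 fold change of 0.02. The median of the 9 enzymes, a list chosen with earlier results of these data known, was 1.72. A called rise of at least 1 on the log2 scale was seen for 8.39% of tested genes and for 6 of the enzymes: ASNS, ASS1, GPT2, CBS, ASL and PYCR1. Groups without overlap and with overexpression above vector made up 30.1% of all tested genes, and the same 8 enzymes were among them. In bulk RNA, fewer cells making a transcript and less of it per cell cannot be told apart.

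**Figure D1:**
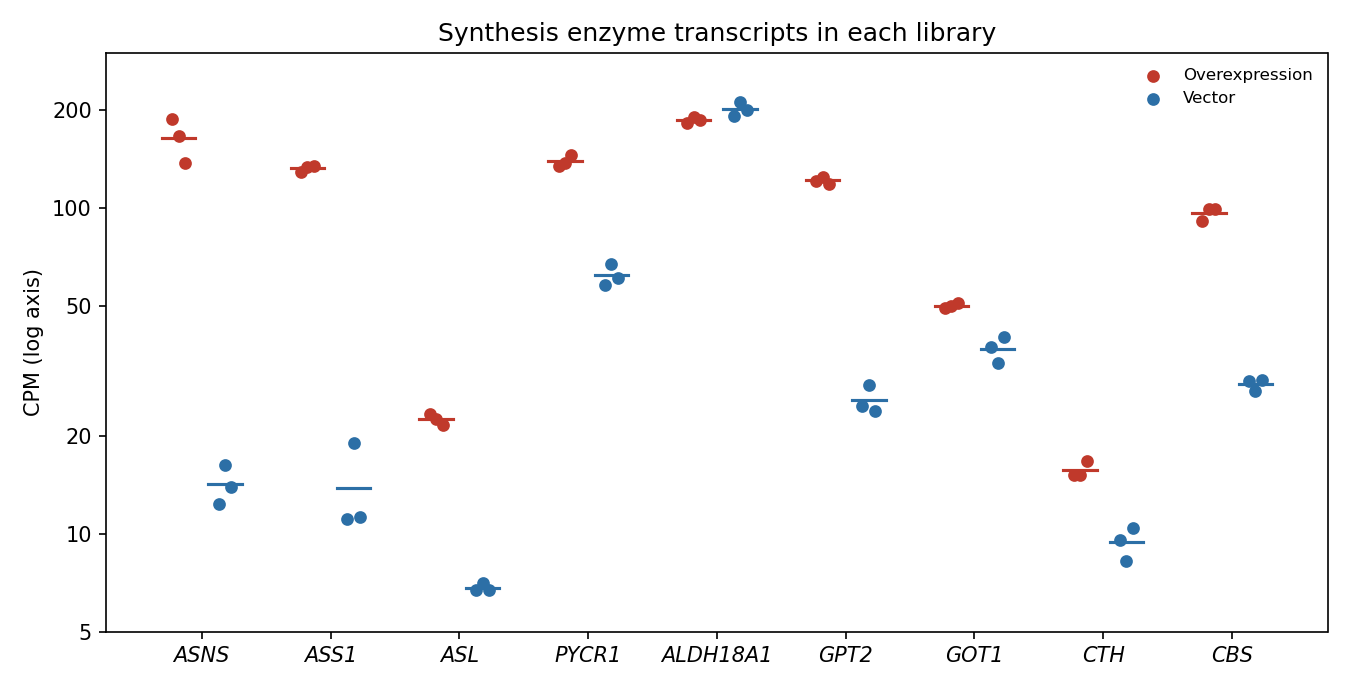
CPM of each enzyme transcript on a log axis in the 3 overexpression and 3 vector libraries, 1 point per library with the group mean as a bar. The groups are separate for each gene, with overexpression above vector for all but ALDH18A1, whose vector mean is 1.08-fold higher.

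ASNS, which amidates aspartate to asparagine with glutamine as the nitrogen donor, had the largest fold change of the 9. It stood at 188, 167 and 138 CPM in overexpression, against 12.4, 16.3 and 13.97 CPM in vector (chromosome 7, 97852118 to 97872542, minus strand, GENCODE 29). Every overexpression library was far above every vector library, and overexpression replicate 3 was the lowest of its group. The fitted change was 11.5-fold (log2 3.53 ± 0.14, SE; edgeR adjusted p = 2.17e-06), the 179th largest rise among all tested genes. A rise of at least 3 on the log2 scale was called for 1.26% of them, and ASNS and ASS1 were the 2 enzymes with such a rise. The coefficient of variation of ASNS was 15.2% in overexpression, against a median of 8.42% over all tested genes in that group. AC079781.5, a transcript on the same strand that overlaps ASNS, held 0 to 3 estimated counts in overexpression and 9 to 15 in vector, so few reads were assigned to it.

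GOT1, the cytosolic aspartate aminotransferase, interconverts oxaloacetate and aspartate and so can supply the aspartate used by ASNS and ASS1. It stood at 49.5, 50.04 and 51.2 CPM in overexpression and at 37.4, 33.5 and 40.2 CPM in vector (chromosome 10, 99396870 to 99431569, minus strand). The groups were apart but close, and the change of 1.36-fold (log2 0.44 ± 0.07, SE; edgeR adjusted p = 0.00167) was the smallest among the 8 enzymes that rose. GOT2, its mitochondrial counterpart, averaged 180.4 ± 10.1 CPM in overexpression and 182.01 ± 6.69 CPM in vector (SD, n = 3 each; edgeR adjusted p = 0.864), with overlapping groups.

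The RefSeq promoter table on GRCh38.p14 holds windows for 7 of the 9 enzymes, 11 windows in all, each from 250 bases before to 50 bases after a transcription start. The core of the C/EBP-ATF response element, searched as TGATGNAA on both strands, was found in 2 of these windows, and in 3.62% of the 35116 windows of all genes. These 2 windows, of ASNS and GOT1, are shown because they hold a match to these letters, in genes that rose by very different amounts. A match in letters does not show a working element. Each is written in the direction of transcription, with the matched bases in capitals. In ASNS (chr7:97872359-97872658, minus strand) the match begins 68 bases before the start, and the longer form TGATGAAAC, which it belongs to, was found in 0.225% of all windows. In GOT1 (chr10:99430575-99430874, minus strand) the match lies on the opposite strand, as TTGCATCA, 198 bases before the start, and this form was found in 0.866% of all windows.
ASNS: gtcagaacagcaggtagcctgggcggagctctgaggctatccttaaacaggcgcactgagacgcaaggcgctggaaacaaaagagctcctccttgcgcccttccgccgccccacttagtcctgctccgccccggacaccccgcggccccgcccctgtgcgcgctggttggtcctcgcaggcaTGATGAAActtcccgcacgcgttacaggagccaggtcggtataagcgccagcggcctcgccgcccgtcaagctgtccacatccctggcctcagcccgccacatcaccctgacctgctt
GOT1: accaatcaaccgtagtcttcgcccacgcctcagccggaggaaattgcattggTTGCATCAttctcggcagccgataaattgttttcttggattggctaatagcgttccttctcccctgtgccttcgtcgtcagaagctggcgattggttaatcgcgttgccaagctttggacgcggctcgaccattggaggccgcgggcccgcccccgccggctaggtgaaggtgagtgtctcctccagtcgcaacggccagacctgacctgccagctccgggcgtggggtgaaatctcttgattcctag
The windows of ASS1, ASL, CTH, CBS and ALDH18A1, and the other start of ASNS, held no match, which says only that these letters are absent from these bases. ASNS rose 11.5-fold and GOT1 1.36-fold, and ASS1, without a match in its windows, rose 9.58-fold. PYCR1 and GPT2, which also rose, had no window to search. Binding of ATF4 was not measured, and the part of these matches in any change was not tested.

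Arginine is made from citrulline and aspartate by argininosuccinate synthase, ASS1, followed by argininosuccinate lyase, ASL. ASS1 stood at 129, 134 and 135 CPM in overexpression, against 11.1, 19.0 and 11.3 CPM in vector (chromosome 9, 130444929 to 130501274, plus strand). The overexpression libraries lay within a coefficient of variation of 2.34%, whereas vector replicate 2 was well above the other vector libraries, for a coefficient of 32.7%. The change was 9.58-fold (log2 3.26 ± 0.20, SE; edgeR adjusted p = 1.15e-05), or 3.56 on the log2 scale without vector replicate 2. ASS1 has many processed pseudogenes: the 14 rows so named summed to 23 to 38 estimated counts in overexpression and 11 to 54 in vector, against 8393 to 10003 and 645 to 1533 for ASS1 itself.

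ASL stood at 23.4, 22.6 and 21.6 CPM in overexpression and at 6.73, 7.06 and 6.74 CPM in vector (chromosome 7, 66075798 to 66093558, plus strand). Both groups were tight and far apart, with a change of 3.29-fold (log2 1.72 ± 0.09, SE; edgeR adjusted p = 7.49e-06). Both enzymes of the arginine route were therefore higher, and ASS1 by more: the log2 ratio of ASS1 to ASL was 2.54 ± 0.09 in overexpression and 0.92 ± 0.39 in vector (SD, n = 3 each; difference 1.62, exact two-sided permutation p = 0.1, 0.114 adjusted over 8 such pairs). With 3 libraries against 3, 0.1 is the smallest p this test can give, so no ratio can pass 0.05. A ratio of CPM carries the lengths of its 2 genes, so only its difference between groups is compared.

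In the list of other arginine and urea cycle genes, 4 of 14 tested genes were higher and 4 lower, with a median log2 fold change of 0.10. Over all tested genes, 22.6% were called higher and 23.4% lower, so these counts are near what any genes showed. ARG2, the mitochondrial arginase, and NOS3, a nitric oxide synthase, both of which consume arginine, rose with log2 fold changes of 0.72 ± 0.14 and 0.74 ± 0.12 (SE; edgeR adjusted p = 0.0038 and 0.00126). ODC1, which makes polyamines from ornithine, averaged 129 ± 5.05 CPM in overexpression and 204 ± 30.1 CPM in vector (SD of n = 3 each; log2 change -0.67, edgeR adjusted p = 8.14e-04). Of the antizyme inhibitors, which protect ODC1 from degradation, AZIN1 fell by 0.94 on the log2 scale and AZIN2, at 9.76 ± 0.706 CPM in overexpression and 4.92 ± 0.837 CPM in vector (SD, n = 3 each), rose by 0.99 (edgeR adjusted p = 1.74e-05 and 0.00155). ODC1 lies on chromosome 2, where 414 of 788 protein-coding genes (mean count of 100 or more) fell and the median log2 change was -0.31. AZIN1 lies on chromosome 8, where 186 of 397 fell and the median was -0.20. Over all chromosomes, 4022 of 11733 such genes (34.3%) fell, with a median of -0.05. The part of these chromosome shifts in single genes was not tested. SLC25A15, the mitochondrial ornithine carrier, fell by 0.60 (edgeR adjusted p = 0.00207). OTC, which makes citrulline from ornithine, stood at 0.262 ± 0.119 CPM in overexpression and 0.251 ± 0.118 CPM in vector (SD, n = 3 each), and CPS1, which supplies its carbamoyl phosphate, at 2.36 ± 0.257 CPM in overexpression and 2.397 ± 0.325 CPM in vector (edgeR adjusted p = 0.933 and 0.945).

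Proline is made from glutamate by ALDH18A1, which forms pyrroline-5-carboxylate, and by reductases such as PYCR1 and PYCR3, which turn it into proline. PYCR1, a mitochondrial reductase, stood at 135, 138 and 146 CPM in overexpression and at 58.04, 67.3 and 61.2 CPM in vector (chromosome 17, 81932384 to 81942412, minus strand). Its groups were clearly apart, with a change of 2.24-fold (log2 1.17 ± 0.07, SE; edgeR adjusted p = 8.18e-06). MYADML2, on the same strand and overlapping PYCR1 in the annotation, held 52 to 92 estimated counts in overexpression and 75 to 150 in vector, against 8758 to 10263 and 3365 to 5433 for PYCR1.

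ALDH18A1 stood at 182, 191 and 187 CPM in overexpression and at 193, 213 and 201 CPM in vector (chromosome 10, 95605929 to 95656706, minus strand). Overexpression was slightly below vector without overlap, but the log2 fold change of -0.11 ± 0.05 was not called (edgeR adjusted p = 0.101; 0.05 to 0.357 over the alternative settings). The enzyme that opens the route from glutamate and the reductase that closes it thus differed in what was called. OAT, which forms the same intermediate from ornithine, averaged 31.9 ± 3.73 CPM in overexpression and 36.6 ± 0.967 CPM in vector (SD, n = 3 each) and was not called either (edgeR adjusted p = 0.099, or 0.042 without overexpression replicate 1).

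PYCR3, the cytosolic form, on chromosome 8 like AZIN1, fell to 16.1, 16.6 and 17.4 CPM in overexpression, against 25.6, 34.1 and 25.98 CPM in vector (log2 fold change -0.77 ± 0.12, SE; edgeR adjusted p = 0.00121). PYCR1 and PYCR3 thus moved in opposite directions. The log2 ratio of PYCR1 to PYCR3 was 3.03 ± 0.0057 in overexpression and 1.12 ± 0.13 in vector (SD, n = 3 each; difference 1.91, exact two-sided permutation p = 0.1). ALDH4A1, a proline breakdown enzyme that oxidises the same intermediate back to glutamate, rose by 0.58 ± 0.08 on the log2 scale (SE; edgeR adjusted p = 5.03e-04). In all, 2 of the 6 other proline and ornithine genes tested rose and 1 fell, beside 22.6% and 23.4% of all tested genes.

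Cysteine is made from methionine through homocysteine: CBS condenses homocysteine with serine to cystathionine, and CTH cleaves that to cysteine. CBS stood at 91.3, 99.6 and 99.7 CPM in overexpression and at 29.6, 27.4 and 29.8 CPM in vector (chromosome 21, 43053191 to 43076943, minus strand). The groups were tight and far apart, with a change of 3.35-fold (log2 1.74 ± 0.06, SE; edgeR adjusted p = 1.21e-06). GRCh38 carries a near-identical copy, CBSL, which took 36.7% to 37.5% of the counts of the pair in overexpression and 36.1% to 36.9% in vector, so the assignment of reads between them is uncertain. CBS and CBSL together averaged 154 ± 7.99 CPM in overexpression and 45.6 ± 1.86 CPM in vector (SD, n = 3 each), and the log2 fold change of CBS with both rows summed was 1.75.

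CTH stood at 15.1, 15.2 and 16.7 CPM in overexpression and at 9.59, 8.28 and 10.4 CPM in vector (chromosome 1, 70411218 to 70439851, plus strand). The groups were apart, with a change of 1.66-fold (log2 0.74 ± 0.12, SE; edgeR adjusted p = 0.0016). Within each library the ratio of CTH to CBS was lower in overexpression, at -2.59 ± 0.07 on the log2 scale against -1.57 ± 0.10 in vector (SD, n = 3 each; exact two-sided permutation p = 0.1).

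The methionine cycle that supplies homocysteine did not move with CBS and CTH. Of 9 other genes tested in that list, edgeR called 0 higher and 5 lower, the median log2 change being -0.33. At an unadjusted p under 0.05, 1 was higher, and DESeq2 called 0 higher and 5 lower. Over all tested genes, edgeR called 22.6% higher and 23.4% lower. MAT2A, which makes S-adenosylmethionine and lies on chromosome 2 like ODC1, averaged 332 ± 5.54 CPM in overexpression and 467 ± 50.8 CPM in vector (SD of n = 3 each; log2 change -0.49, edgeR adjusted p = 9.43e-04). Its regulatory subunit gene MAT2B fell by 0.33, AHCY, which releases homocysteine, by 0.36, MTR, which returns homocysteine to methionine, by 0.36, and GNMT, a glycine methyltransferase, by 0.75 (edgeR adjusted p = 0.00595, 0.00766, 2.16e-04 and 0.0134). MAT1A, the liver-type counterpart of MAT2A, at 6.18 ± 0.710 CPM in overexpression and 2.54 ± 2.05 CPM in vector (SD, n = 3 each), was not called by edgeR (adjusted p = 0.0603). It was called higher without vector replicate 2 (log2 fold change 2.17, adjusted p = 2.88e-05) and under 3 other settings, limma-voom, the replicate block and values divided by 4.

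Among genes that use cysteine, 3 of 14 tested rose and 5 fell, beside 22.6% and 23.4% of all tested genes. Without vector replicate 2, 5 genes of this list rose. That fit also called more genes in all than any other fit, so the gain need not be particular to this list. The enzymes of glutathione synthesis differed: GCLC and GCLM, the catalytic and modifier subunits of its rate-limiting ligase, fell by 0.56 and 0.45 on the log2 scale (edgeR adjusted p = 1.29e-04 and 0.00456), while GSS, which adds glycine, averaged 86.9 ± 2.57 CPM in overexpression and 41.5 ± 0.466 CPM in vector (SD of n = 3 each; log2 change 1.07, edgeR adjusted p = 3.5e-06). CHAC1, which degrades glutathione and is induced by ATF4, stood at 49.0, 50.003 and 47.8 CPM in overexpression and at 10.6, 4.20 and 9.04 CPM in vector (log2 fold change 2.63 ± 0.29, SE; edgeR adjusted p = 1.88e-04), vector replicate 2 being the lowest. GSR, which reduces oxidised glutathione and lies on chromosome 8, fell by 0.50, and ETHE1, a mitochondrial sulfur dioxygenase, rose by 0.53 (edgeR adjusted p = 0.00555 and 0.0022).

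GPT2, the mitochondrial alanine aminotransferase, transfers nitrogen between glutamate and pyruvate to make alanine and 2-oxoglutarate. It stood at 122, 125 and 119 CPM in overexpression, against 24.8, 28.6 and 23.9 CPM in vector (chromosome 16, 46884378 to 46931297, plus strand). Both groups were tight and far apart, with a change of 4.73-fold (log2 2.24 ± 0.08, SE; edgeR adjusted p = 9.61e-07). GPT, the cytosolic form, was scarce, at 2.21 ± 0.617 CPM in overexpression and 3.17 ± 1.06 CPM in vector (SD, n = 3 each; edgeR adjusted p = 0.205), with overlapping groups. The log2 ratio of GPT2 to GPT differed by 2.64 between overexpression and vector (exact two-sided permutation p = 0.1, n = 3).

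Other aminotransferases were mixed. PSAT1, of serine synthesis, had a log2 fold change of 1.86 ± 0.09, and the branched-chain aminotransferases BCAT1 and BCAT2 of 0.95 ± 0.04 and 0.38 ± 0.05 (SE; edgeR adjusted p = 5.46e-06, 3.08e-06 and 5.39e-04). GOT2, GPT, OAT, KYAT1 and KYAT3 were not called, at -0.01, -0.52, -0.20, 0.47 and -0.15 on the log2 scale. KYAT1 was called higher without overexpression replicate 3 (0.73, edgeR adjusted p = 0.00829), and KYAT3 lower without vector replicate 2 (-0.19, edgeR adjusted p = 0.0392). GLUD1, glutamate dehydrogenase, fell by 0.24 (edgeR adjusted p = 0.00143). Of 13 genes tested in this list besides GPT2 and GOT1, 4 rose, 2 fell and the median was -0.01. Of all tested genes, 22.6% rose and 23.4% fell. Of the malate-aspartate shuttle, to which GOT1 belongs, MDH1, the cytosolic malate dehydrogenase, fell by 0.91 (edgeR adjusted p = 5.07e-06). MDH1, like ODC1, lies on chromosome 2. SLC25A11, the oxoglutarate carrier, rose with a log2 fold change of 0.18 (edgeR adjusted p = 0.0342), a call lost under 9 of its alternative settings, with adjusted p up to 0.135.

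ASNSD1, named for a domain it shares with asparagine synthetase and also on chromosome 2, fell to 45.7 ± 3.29 CPM in overexpression, against 61.9 ± 1.38 CPM with the vector (SD of n = 3 each; log2 change -0.44, edgeR adjusted p = 8.86e-04). The log2 ratio of ASNS to ASNSD1 was 1.83 ± 0.14 in overexpression and -2.09 ± 0.16 in vector (exact two-sided permutation p = 0.1, n = 3). NIT2, an omega-amidase, rose with a log2 fold change of 0.23 (edgeR adjusted p = 0.0169), a call lost without any one overexpression library and without vector replicate 3, with adjusted p of 0.0503 to 0.0659.

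**Figure D2:**
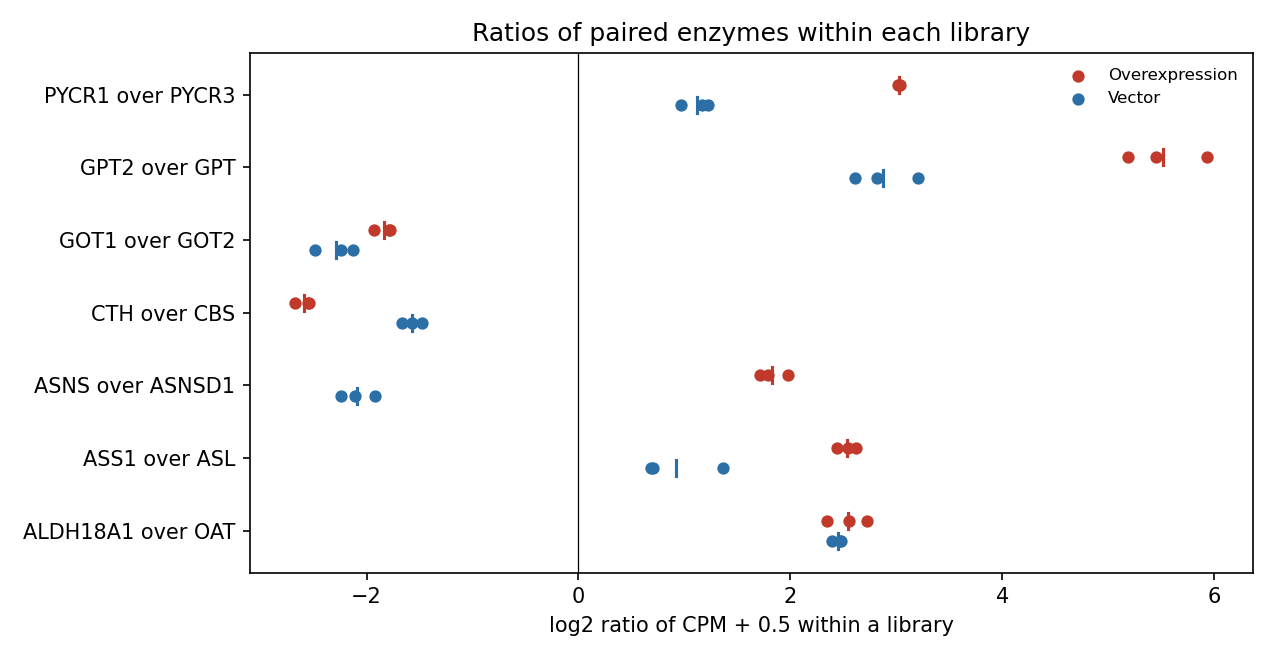
Log2 ratio of the CPM values (plus 0.5) of 2 enzymes within each library, 1 point per library and the group mean as a bar, with overexpression drawn as the upper set of each row. Of the 7 pairs drawn, the groups overlap for ALDH18A1 over OAT and are apart for the others.

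**Figure D3:**
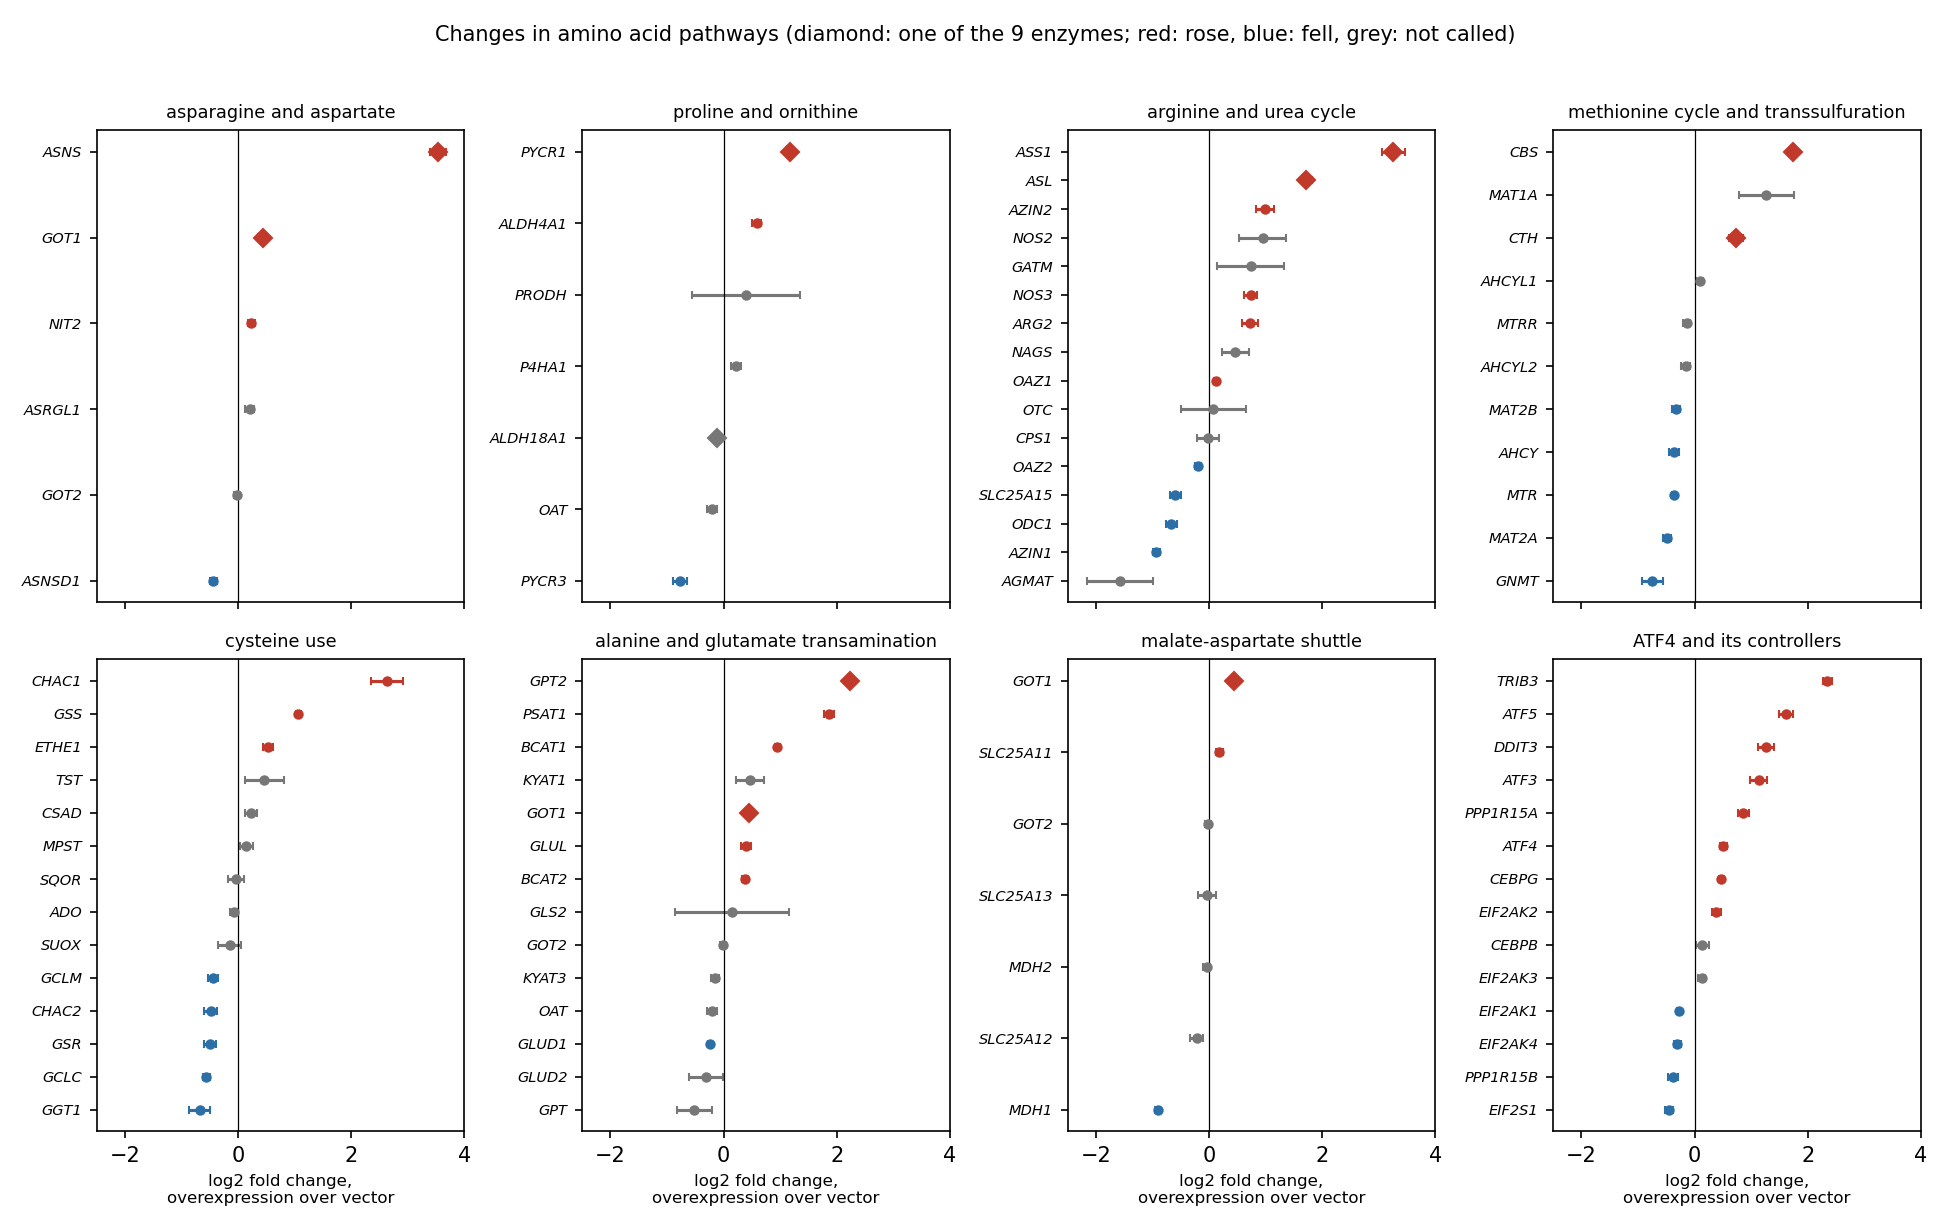
Log2 fold change of overexpression over vector, with SE, for tested genes of 8 pathway lists, the 9 enzymes as diamonds. In the methionine list CBS and CTH stand above 0 as called rises while the 5 other called genes stand below 0; in the ATF4 list 8 genes rose and 4 fell.

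Over the 8 pathway lists together, 77 genes other than the 9 enzymes were tested, of which 23 were called higher and 23 lower (median log2 change 0.07), against 22.6% higher, 23.4% lower and a median of 0.02 in all tested genes. Rises and falls were equally frequent among these surrounding genes. ATF4 itself averaged 702 ± 8.32 CPM in overexpression and 493 ± 39.9 CPM in vector (SD of n = 3 each; log2 change 0.51, edgeR adjusted p = 2.9e-04). Among ATF4 and its controllers, 8 of 14 tested genes rose and 4 fell: the ATF4-induced genes TRIB3, ATF5 and PPP1R15A had log2 fold changes of 2.35 ± 0.08, 1.62 ± 0.13 and 0.86 ± 0.09, while EIF2AK4, the gene of GCN2, EIF2AK1, another eIF2 kinase gene, and EIF2S1, the gene of the eIF2 alpha subunit, fell by 0.30, 0.27 and 0.45 (edgeR adjusted p = 0.00367, 7.49e-04 and 9.67e-04). Transcript levels do not show phosphorylation or translation, which were not measured.

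The order of the enzymes by level also differed between groups. Per kilobase of annotated exon, overexpression ran from ALDH18A1 at 49.6 ± 1.14, PYCR1 at 48.4 ± 1.996, ASS1 at 43.6 ± 1.02 and ASNS at 36.9 ± 5.61, through GPT2 at 19.2 ± 0.499, GOT1 at 14.9 ± 0.263 and CBS at 14.3 ± 0.711, down to ASL at 7.04 ± 0.281 and CTH at 6.499 ± 0.376 CPM per kilobase (SD, n = 3). ALDH18A1 and PYCR1 overlapped there, as did ASL and CTH. In vector, ALDH18A1 at 53.7 ± 2.69 was followed by PYCR1 at 21.6 ± 1.64 and GOT1 at 10.99 ± 1.002 CPM per kilobase. ASS1, CBS, GPT2, CTH and ASNS followed between 4.52 and 3.19, each overlapping the next, and ASL was lowest at 2.14 ± 0.0596. ASNS thus held place 4 of 9 in overexpression and place 8 in vector. Summed over the 9 enzymes, the level was 931 ± 14.7 CPM in overexpression and 400.3 ± 19.1 CPM in vector (SD, n = 3 each), of which ALDH18A1 made up 187 ± 4.28 and 202 ± 10.1 CPM. Exon lengths are unions over all annotated transcripts, 6.79 kilobases for CBS, so a gene with long and rarely used exons would be set lower than its main transcript. CBSL, the near-identical copy of CBS, averaged 56.9 ± 3.26 CPM in overexpression and 16.7 ± 0.552 CPM in vector (SD, n = 3 each). Its counts are left out of these places and of the sum. The place of CBS, and of genes near it in level, therefore depends on the uncertain assignment of reads between CBS and CBSL.

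Because chromosomes differed in their median change, each enzyme was set beside its 20 nearest protein-coding neighbours of mean count 100 or more, 10 on each side, a comparison chosen after the data were seen. Around ASS1, edgeR called 18 of 20 neighbours lower and 0 higher (0 higher also at an unadjusted p under 0.05 and by DESeq2). Their median log2 change was -0.60 and their highest -0.27 (AIF1L), while ASS1 itself was at 3.26. Around CBS, edgeR called 15 of 20 lower and 0 higher (1 higher at an unadjusted p under 0.05, 0 by DESeq2), with a median of -0.42 and a highest value of 0.21 (NDUFV3), against 1.74 for CBS. On chromosomes 9 and 21 as a whole, 272 of 459 and 54 of 115 such genes fell, with medians of -0.40 and -0.18. Over all chromosomes, 4022 of 11733 such genes (34.3%) fell and 3053 rose, with a median of -0.05. Around ASNS, 8 rose and 4 fell, with a median of 0.12, and the highest neighbour was SAMD9L at 2.72, below ASNS at 3.53. Around ASL, PYCR1, ALDH18A1, GPT2, GOT1 and CTH the medians ran from -0.16 to 0.05. Near GPT2 (2.24), GOT1 (0.44) and CTH (0.74) the highest neighbour rose by more than the enzyme: ZNF423 at 2.73, MORN4 at 1.38 and HHLA3 at 0.80. Near ASL (1.72) and PYCR1 (1.17) it stayed below the enzyme: TPST1 at 1.41 and ASPSCR1 at 0.58. The rises of ASS1 and CBS thus ran opposite to the changes called around them.

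**Figure D4:**
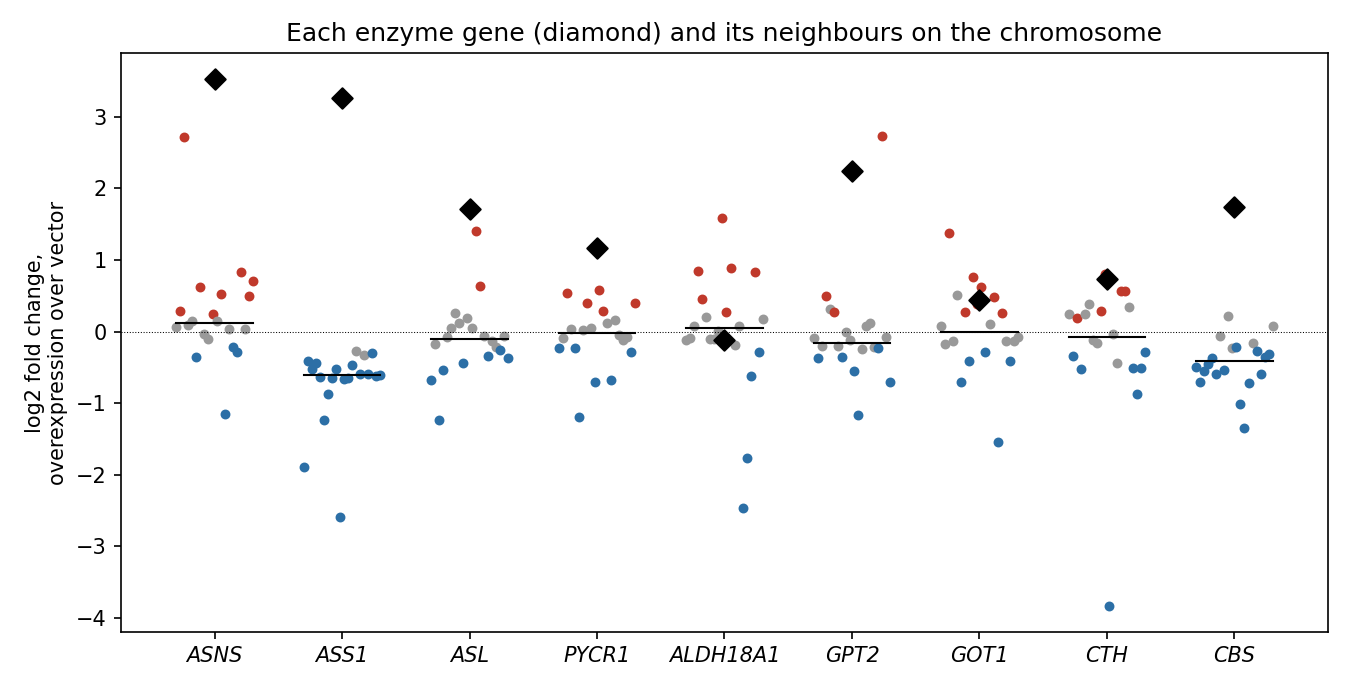
Log2 fold change of each enzyme gene (black diamond) and of its 20 nearest measured neighbours in chromosome order (red rose, blue fell, grey not called; the bar is their median). ASS1 stands at 3.26 above neighbours that are all below 0, and CBS at 1.74 above neighbours with a median of -0.42.

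The genes whose profile over the 6 libraries lay closest to the mean profile of the 9 enzymes, by Euclidean distance of centred log2 values among 9640 protein-coding genes of mean level 10 CPM or more, were ARPP21, GK, ADD2, HCLS1 and PHGDH, at distances of 0.107, 0.121, 0.148, 0.188 and 0.196. Of these, PHGDH belongs to serine synthesis and GK is glycerol kinase. ARPP21 averaged 477 ± 10.1 CPM in overexpression and 151 ± 1.75 CPM in vector (SD, n = 3 each). Their log2 fold changes ran from 1.66 to 1.77, beside the enzymes' median of 1.72. This closeness follows from how they were picked and is no separate result. The enzymes themselves ran from -0.11 (ALDH18A1) to 3.53 (ASNS), so the mean profile does not describe each of them.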

How the data were processed

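The authors deposited expected counts (estimated counts, whole numbers) per gene symbol, unscaled, 1 column for each of 6 libraries. The tools named per the submitters' processing notes are STAR 2.7.10a, fastp 0.23.2, DESeq2 and StringTie, and the build is hg38; annotation release and strand setting are not given in the sources used here. In each column a value of 4 (1069 to 1154 genes) was more frequent than 3, as if 1 read pair added about 4, but a value of 1 was more frequent still (2716 to 3651 genes), against that reading; what 1 count stands for is unsettled, and no counting interval is given; values divided by 4 were an alternative. In R 4.3.3, edgeR 4.0.16 applied its default expression filter, TMM scaling and a quasi-likelihood F test on group alone, with a threshold of 0.05; SE come from the F statistic. Ratios used log2(CPM + 0.5).

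On counts simulated with the mean levels and library sizes of these data (20663 genes), the fit recovered 83.6% of 67 genes changed 1.5-fold. It recovered 100% of those changed 2-fold or 4-fold, with 6 false calls among 195. The simulation gave all genes the same dispersion and changed few genes, none of low level and about equally up and down. In the data 46.1% of tested genes were called, so these figures are not the recovery or false-call rate of the data. Alternatives were DESeq2 1.42.0, limma-voom (limma 3.58.1), other size factors and filters, a replicate block, each library left out, values divided by 4, removal of genes of chromosomes 2 and 9, removal of a GC and length trend (81.5% of tested genes had both), and CBS with CBSL summed, the last chosen after seeing the data. Positions and exon lengths came from GENCODE 29 on GRCh38, the assembly of hg38, in which 40124 of 59248 symbols were matched. Promoter windows came from RefSeq (GRCh38.p14). The enzymes and lists were chosen with earlier results of these data known. All 9 enzymes are named, with up to 3 risen and 3 fallen genes of smallest adjusted p from each pathway list and a few counterpart enzymes; some genes and 1 of the 8 pairs are not reported here, though they count in the totals; GNMT, MAT1A, CPS1 and OTC were named after their values were seen. Figures were drawn with matplotlib 3.10.9.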

Additional observations from a re-analysis of the deposited data

How the results depend on the processing

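The 9 enzymes kept their calls under all 17 alternative fits: 8 higher in overexpression, 0 lower and ALDH18A1 not called, with log2 fold changes of 3.42 to 3.64 for ASNS, 3.12 to 3.56 for ASS1 and 0.36 to 0.50 for GOT1. The count of all called genes ran from 7916 to 10868 around the main 9705, highest without vector replicate 2, and that of the 77 surrounding pathway genes from 36, when genes of chromosomes 2 and 9 were left out and fewer were tested, to 54 without vector replicate 2, around the main 46. The replicate block gave 8 enzymes and 8690 genes. Correlations of same-numbered libraries, as deviations from their group means, were 0.018, 0.0047 and 0.00082, so no shared deviation was seen. They cannot show whether same-numbered libraries were cultured or prepared together. GOT2, not called, stood at -0.013 on the log2 scale and changed sign to 0.035 with upper-quartile factors, 0.0026 with the stricter filter and 0.0023 with GC and length trends removed; with each library left out in turn it ran from -0.059 to 0.018. The cause was not tested. Precision is limited by 3 libraries a group and by the unsettled size of 1 read pair in these estimated counts.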
